A study of Mus musculus with 16 samples.

Results

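The ovary of the Wnt4 knock-out mouse embryo at E12.5 was set against the testis of the wild-type embryo of the same day, to ask which autosomal genes of the mutant ovary stood at the level of a testis and which did not. The comparison used 4 of the 16 arrays of the series, 2 of gonads labelled embryonic ovary and Wnt4 knock-out and 2 of gonads labelled embryonic testis and wild type. Of 12332 genes measured in the series, the 11849 on autosomes were kept, because genes of the X and Y differ between the sexes whatever the state of the gonad. The 2 wild-type ovary arrays of E12.5 (wild type at Wnt4, no treatment) are given beside them as the level from which a mutant ovary would have moved. The other arrays were knock-out testes of E12.5 and all 4 kinds of gonad at E14.5. The knock-out is named without its allele, strain or deleted part, no Cre line or treatment is named, and the control gonads are described only as wild type. Arrays of a group are labelled biological replicates, and whether an array holds 1 embryo or several is not said there, so a p-value here measures only the spread between arrays, which may be technical. The titles of the male arrays name an ovary while their source field names a testis, and they were taken as testis.

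The gonad of the mouse starts as a common primordium in both sexes. In the XY gonad the transcription factor SOX9 drives supporting cells to become Sertoli cells, which enclose the germ cells in cords, signal to steroid-making Leydig cells through desert hedgehog and hold germ cells out of meiosis. In the XX gonad R-spondin 1 and the secreted ligand WNT4 act through beta-catenin in pre-granulosa cells, where follistatin (Fst), an antagonist of activin, and Msx1, a homeobox factor, are among the genes that depend on them. Ovaries without Wnt4 are known for a male-type coelomic vessel and for steroid-making cells that an ovary of this age normally lacks. Lefty2, an inhibitor of the NODAL ligand, is a gene of the male fetal germ cell.

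Each array gives an intensity for a probe set, and values below are these intensities in the order replicate 1, then replicate 2. A difference is on the log2(intensity + 4) scale, knock-out ovary minus wild-type testis, so that a gene lower in the mutant ovary has a negative value and the change of a dim gene is understated. A gene was called higher or lower when its adjusted p from limma was under 0.05. A gene was counted as within 2-fold of testis level when the 95% interval of its difference lay between -1 and 1, since a p that misses the threshold does not show that levels are alike. Array medians were 9.39 and 9.72 in the knock-out ovary and 10.5 and 10.4 in the testis, so intensities near 10 are close to background.

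Wnt4 itself read 839 and 520.2 in the arrays labelled knock-out, 844 and 1822 in the wild-type ovary and 502 and 473 in the testis. The position of its probe set relative to the deleted part is not stated in the sources used here, so this level is no check of the label, and knock-out ovary below means the arrays so labelled. Xist, expressed from the inactive X, read 4579 and 3654 in the knock-out ovary and 5.92 and 5.98 in the testis. The Y-linked gene Eif2s3y read 4.87 and 231 in the knock-out ovary, 245 and 117 in the wild-type ovary and 1127 and 999 in the testis. Set against the male arrays over 3 Y-linked genes, replicate 2 of the knock-out ovary held a share of 17.7% male signal and replicate 1 held 0%, with 18% and 6.74% in the wild-type ovary. The lowest ovary array of E12.5 was set as 0% for each gene. Knock-out replicate 1 was that array for all 3, so its 0% is a reference point and not a measured absence. The 3'/5' ratio of the control transcripts, which rises as RNA is degraded, was 2.27 in knock-out replicate 1 and 1.35 in knock-out replicate 2. It was 1.09 and 1.76 in the wild-type ovary and 1.12 and 1.13 in the testis. Mean intensity ran from 272 to 288 over the 16 arrays. The 2 testis arrays lay closer to each other than any other pair, with a standard deviation of 0.142 for their log2 difference against 0.335 to 0.587 in the other 7 groups, and they held 0 identical values.

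Of the 11849 autosomal genes, 1056 (8.91%) were called between knock-out ovary and wild-type testis, 812 (6.85%) higher and 244 (2.06%) lower in the ovary. By the interval 6774 genes (57.2%) were within 2-fold of testis level. The arrays of the 2 groups did not overlap for 8452 genes (71.3%). The wild-type ovary against the same testis arrays gave 64 calls (0.54%), 47 (0.397%) higher and 17 (0.143%) lower, with 7987 genes (67.4%) within 2-fold. Without wild-type ovary replicate 1 that count was 1506, without wild-type ovary replicate 2 it was 18, and without testis replicate 1 or 2 it was 11 or 9. These comparisons share the testis arrays, and their counts were not tested against each other. Calls by limma fell to 19 without knock-out replicate 1, which had the highest 3'/5' ratio of the 6 arrays, rose to 2653 without knock-out replicate 2, and fell to 12 and 9 without testis replicate 1 and 2. With the close pair of testis arrays averaged as 1 sample the count was 8, and with the 3'/5' ratio as a covariate it was 12. The count also rose when either wild-type ovary array was left out. These arrays are outside the comparison but enter the shared estimate of spread. The part of RNA quality or of male signal in the count was not tested. Among called genes 76.9% were higher in the knock-out ovary, and 49.9% were after each array was centred on its median, an alternative chosen after seeing the data that moved the median difference of all autosomal genes from 0.15 to -0.02. None of the 150 genes chosen for naming reversed a called direction under any setting run. For genes whose arrays did not overlap, leaving out 1 array could not reverse it. Among named genes without a call, 18 changed sign with the 3'/5' ratio as a covariate and 10 without knock-out replicate 1.

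**Figure D1:**
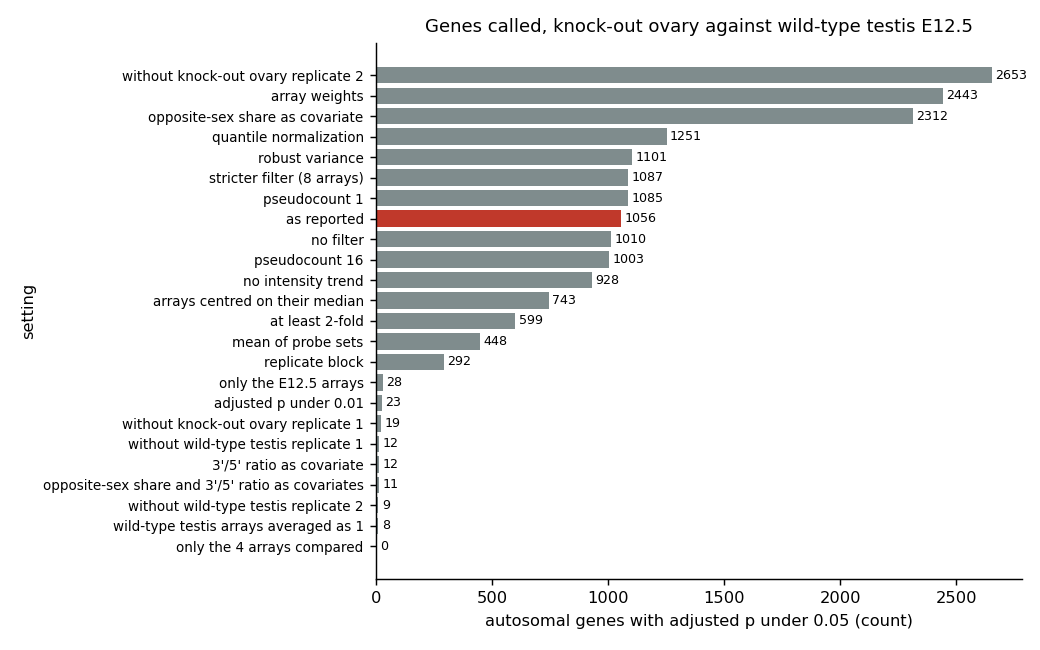
Number of the 11849 autosomal genes called between knock-out ovary and wild-type testis (bars, from 0) as deposited and under other settings of the same limma fit, each bar labelled with its count. The count is 1056 as deposited, 19 without knock-out ovary replicate 1, 8 with the testis arrays averaged as 1 sample and 2653 without knock-out ovary replicate 2.

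Genes of the wild-type ovary that stood at the level of the testis in the mutant ovary included Msx1, Phlda2 and Sp5, with Kitl there on 1 of its probe sets. Msx1 and Phlda2 were called lower in the mutant than in the wild-type ovary. Sp5 and Kitl were not (limma adjusted p = 0.0764 and 0.0719), nor were Irx5 and Runx1, described with them (0.326 and 0.0786). Sp5, Kitl and Irx5 were also not called between wild-type ovary and testis (limma adjusted p = 0.0596, 0.0904 and 0.226). For these, being within 2-fold does not show a move to testis level. The homeobox gene Msx1 read 36.3 and 30.7 in the knock-out ovary, 189 and 246 in the wild-type ovary and 27.05 and 33.5 in the testis. The mutant and testis arrays overlapped and both wild-type ovary arrays were higher, and the difference from testis was 0.13 (95% interval -0.42 to 0.69, limma adjusted p = 0.747). Msx1 lay within 2-fold of testis in all 21 settings in which it was measured. Against the wild-type ovary, Msx1 fell by 2.55 in the knock-out (limma adjusted p = 0.000955). Phlda2, an imprinted gene for a pleckstrin homology domain protein, read 8.78 and 5.39, then 97.7 and 146 in the wild-type ovary and 7.01 and 7.83 in the testis. Its mutant and testis arrays again overlapped, at intensities no higher than the array medians, so 2-fold there is read close to background. The difference of Phlda2 from testis was -0.06 (interval -0.73 to 0.61), and it was within 2-fold in 17 of 20 settings. Without knock-out replicate 1 the interval of Phlda2 passed 2-fold.

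Kitl, the ligand of the KIT receptor of germ cells, had 4 kept probe sets that did not give the same distance from testis. The brightest, well above background, read 1329 and 1124 in the knock-out ovary, 2375 and 2217 in the wild-type ovary and 1357 and 1303 in the testis. The difference of Kitl from testis on it was -0.12 (interval -0.53 to 0.29), within 2-fold in 20 of 21 settings, the exception being the mean of probe sets at -0.71. The next probe set of Kitl read 99.2 and 226 in the mutant, below 453 and 409 in the testis and 842 and 289.7 in the wild-type ovary, so testis level rests on the choice of probe set. Sp5, a zinc finger factor induced by WNT signals, read 12.3 and 11.4, with 23.8 and 57.5 in the wild-type ovary and 11.8 and 11.99 in the testis. Both groups of low arrays were close to background, and its interval was -0.65 to 0.64. Irx5, an Iroquois homeobox gene, read 5.48 and 5.59, 8.99 and 20.6 and 6.20 and 6.75 in the same order, with an interval of -0.76 to 0.49. Runx1, a Runt-domain factor of pre-granulosa cells, read 12.02 and 11.8 against 6.78 and 6.47 in the testis and 26.9 and 21.2 in the wild-type ovary. On this probe set the knock-out arrays of Runx1 lay between the other groups without overlap, while on another (15.4 and 12.7, with 11.8 and 43.6 in the wild-type ovary) they overlapped the wild-type ovary, and its difference of 0.58 (interval 0.20 to 0.96, limma adjusted p = 0.0539) was within 2-fold.

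Fst and Irx3 had means close to testis but intervals too wide to place them within 2-fold. Fst read 81.3 and 55.5 in the knock-out ovary, 759.8 and 688 in the wild-type ovary and 69.6 and 70.1 in the testis. The mutant arrays lay on both sides of the testis pair and far from the wild-type ovary. The difference from testis was -0.05 (interval -1.22 to 1.11), within 2-fold in 2 of 21 settings, while Fst fell by 3.35 against the wild-type ovary (limma adjusted p = 0.0274). A second probe set of Fst read 14 and 9.62, then 143 and 173, then 6.57 and 9.13 in the same order. Irx3, another Iroquois homeobox gene, read 87.2 and 82.1, with 554 and 1053 in the wild-type ovary and 77.98 and 75.5 in the testis. Every mutant array of Irx3 was above both testis arrays by a small step, with a difference of 0.14 (interval -1.18 to 1.45).

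Lefty2 reached testis level from the other side. It read 117 and 158 in the knock-out ovary, 129 and 166 in the testis and 45.2 and 29.4 in the wild-type ovary. The mutant and testis arrays overlapped and the wild-type ovary arrays were lower than all of them. The difference from testis was -0.11 (interval -0.77 to 0.55, limma adjusted p = 0.839), and Lefty2 rose by 1.79 against the wild-type ovary (adjusted p = 0.0331). Its interval stayed within 2-fold in 18 of 21 settings, the exceptions being without knock-out replicate 2, without testis replicate 1 and with the 3'/5' covariate. Replicate 2 with its 17.7% male signal was the higher mutant array for Lefty2, and replicate 1 with 0% was at 117. Of the other male germ cell genes, Lefty1, a second NODAL inhibitor, read 52.99 and 40.3 against 33.03 and 28.2 in the testis and 12.9 and 12.8 in the wild-type ovary. Tdgf1, the NODAL co-receptor also called Cripto, stayed at the level of the wild-type ovary, with 6.44 and 9.46 and 7.32 and 8.66, against 24.2 and 24.8 in the testis. Tdgf1 was called lower than testis, with a difference of -1.26 (interval -1.64 to -0.89, limma adjusted p = 0.00501), and lost the call without knock-out replicate 1 and without either testis array. Nodal and Dnmt3l, a regulator of DNA methylation in male germ cells, were within 2-fold of testis with Lefty2. For Nodal the wild-type ovary, at 11.6 and 15.2, was itself not called apart from the testis, at 17.9 and 17 (limma adjusted p = 0.51). The list of 6 measured genes held 1 lower (16.7%, beside 2.06% of all genes), 0 higher and 3 within 2-fold (50%, near the 57.2% of all genes).

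**Figure D2:**
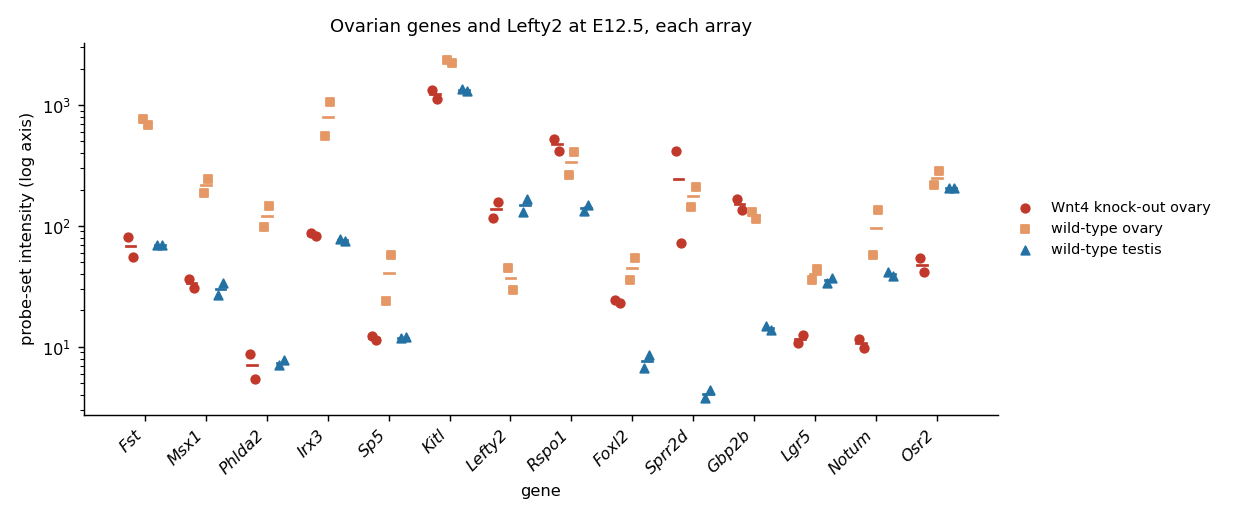
Intensity on a log axis of 14 genes in knock-out ovary, wild-type ovary and wild-type testis at E12.5, where each point is 1 array and each bar the mean of the 2 arrays. Msx1, Fst, Irx3 and Sp5 in the mutant ovary sit with the testis, and Rspo1 and Gbp2b sit with or above the wild-type ovary. Sprr2d lies on both sides of the wild-type ovary and above the testis. Osr2, Notum and Lgr5 sit below both wild-type ovary and testis.

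The 250 bases before the start of Msx1, Phlda2 and Sp5 are printed because these genes read at testis level together in the mutant ovary. They were taken from RefSeq annotation of GRCm38.p6 and read 5' to 3' on the gene's strand. Capitals mark 7-base words bound by TCF and LEF, the DNA-binding partners of beta-catenin, searched on both strands as CTTTGAA, then the word CTTTGAT, then the word CTTTGTA and then the word CTTTGTT, with no other motif searched. Of 6 genes looked up, 4 matched (Msx1, Phlda2, Sp5 and Kitl), and Fst and Lefty2 did not.
Msx1, chr5:37824586-37824835, minus strand: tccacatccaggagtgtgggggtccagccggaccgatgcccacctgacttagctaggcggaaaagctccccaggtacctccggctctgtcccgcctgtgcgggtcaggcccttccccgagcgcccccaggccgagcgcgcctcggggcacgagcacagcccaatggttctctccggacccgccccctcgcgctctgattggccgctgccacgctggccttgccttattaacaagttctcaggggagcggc
Phlda2, chr7:143502525-143502774, minus strand: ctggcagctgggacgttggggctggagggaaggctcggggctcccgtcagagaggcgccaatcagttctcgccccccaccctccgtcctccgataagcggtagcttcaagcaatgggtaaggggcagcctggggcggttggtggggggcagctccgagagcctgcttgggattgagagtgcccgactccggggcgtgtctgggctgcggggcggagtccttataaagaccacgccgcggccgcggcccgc
Sp5, chr2:70474673-70474922, plus strand: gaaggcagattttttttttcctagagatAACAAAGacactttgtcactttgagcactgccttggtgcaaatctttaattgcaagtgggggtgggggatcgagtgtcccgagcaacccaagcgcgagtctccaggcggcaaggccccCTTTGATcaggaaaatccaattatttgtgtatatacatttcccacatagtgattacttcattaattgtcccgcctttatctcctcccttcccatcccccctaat
A word was found at 2 places before Sp5, CTTTGAT beginning 104 bases before the start and AACAAAG, which is CTTTGTT on the other strand, beginning 222 bases before it. No word was found in the windows of Msx1, Phlda2 or Kitl, which says only that these letters are not there. Of 32851 promoter windows of this length, 4874 (14.8%) held at least 1 word, so the matches before Sp5 are a description.

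Other genes that fell in the mutant ovary, Osr2, Notum and Lgr5 among them, were below the testis, not at its level. Of the 11849 genes, 35 (0.295%) were called between knock-out and wild-type ovary, 23 (0.194%) higher and 12 (0.101%) lower, a count that was 19 and 194 without knock-out replicate 1 and 2, and 26 and 16 without wild-type ovary replicate 1 and 2. This comparison shares the knock-out arrays with the one against testis, and both differences are given side by side. Of the 12 called lower, Msx1 and Phlda2 were within 2-fold of testis. Osr2, an odd-skipped zinc finger factor, read 53.9 and 41.6 in the knock-out ovary against 219 and 283 in the wild-type ovary and 207 and 207 in the testis. Wild-type arrays of both sexes were far above both mutant arrays, at a difference of -2.30 from the wild-type ovary (limma adjusted p = 0.00421) and of -2.04 from testis (interval -2.66 to -1.41, limma adjusted p = 0.00561). Notum, a secreted enzyme that inactivates WNT ligands, read 11.6 and 9.75, with 57.8 and 134 in the wild-type ovary and 41.7 and 38.6 in the testis. The mutant level of Notum was near background and below all 4 wild-type arrays, with a difference of -2.66 from the wild-type ovary (adjusted p = 0.0331) and of -1.59 from testis (interval -2.57 to -0.61, adjusted p = 0.0466). Lgr5, a receptor for R-spondins, read 10.8 and 12.5, 35.6 and 44.1 and 33.4 and 37.4 in the same order. Its difference from the wild-type ovary was -1.48 (adjusted p = 0.0493) and from testis -1.33 (interval -1.94 to -0.72, adjusted p = 0.022), again with no overlap.

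The same held for Sorbs2, an adaptor of the cytoskeleton, Igfbp2, which binds insulin-like growth factors, and Grik1, a subunit of kainate receptors. Igfbp2 was the brightest of the 6 genes described here, with 815 and 855 in the knock-out ovary, 2079 and 2305 in the wild-type ovary and 1401 and 1327 in the testis. The knock-out arrays of Igfbp2 were the lowest of the 6 and its difference from testis was -0.71 (limma adjusted p = 0.0357). Sorbs2 read 55.9 and 111 against 214 and 201 in the testis (difference -1.35, adjusted p = 0.0302) and Grik1 9.78 and 9.93 against 23.2 and 20.3 in the testis (difference -0.89, adjusted p = 0.0419). Both knock-out arrays of all 6 lay below both testis arrays, so leaving out 1 array could not change the sign of a difference. Without knock-out replicate 1 only Osr2 was called, without knock-out replicate 2 the calls were Osr2, Sorbs2, Lgr5 and Igfbp2, and without either testis array, or with these averaged as 1, none was (adjusted p 0.0962 to 0.229).

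The 12 measured genes of the list of WNT/beta-catenin feedback targets held 0 higher, 2 lower (Notum and Lgr5, 16.7% beside 2.06% of all genes) and 4 within 2-fold of testis (Rnf43, Znrf3, Sp5 and Dkk1, 33.3% beside 57.2%). Rnf43 and Znrf3 are ubiquitin ligases that remove WNT receptors, and Dkk1 is a secreted WNT antagonist. No gene of the list was called between wild-type ovary and testis, so being within 2-fold does not show a move to testis level. The median difference of the list was -0.33, beside 0.15 for all autosomal genes, and that of the wild-type ovary from the same testis arrays was 0.75. Axin2, a scaffold that limits beta-catenin, read 221 and 124 in the knock-out ovary, 171 and 574 in the wild-type ovary and 89.8 and 90.9 in the testis. Axin2 was thus above both testis arrays in both mutant arrays, by 0.84 (interval -0.14 to 1.83, limma adjusted p = 0.215), which did not pass the threshold. Apcdd1, an inhibitor of WNT at the membrane, read 746 and 696 against 1280.3 and 1236 in the testis and 1738 and 2201 in the wild-type ovary, with a difference of -0.80 (adjusted p = 0.125). Tnfrsf19, a WNT-induced receptor also called Troy, read 274 and 246 against 386 and 343 and 969.6 and 1585, with a difference of -0.48 (adjusted p = 0.472). Both mutant arrays of Apcdd1 and of Tnfrsf19 were lower than all 4 wild-type arrays.

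**Figure D3:**
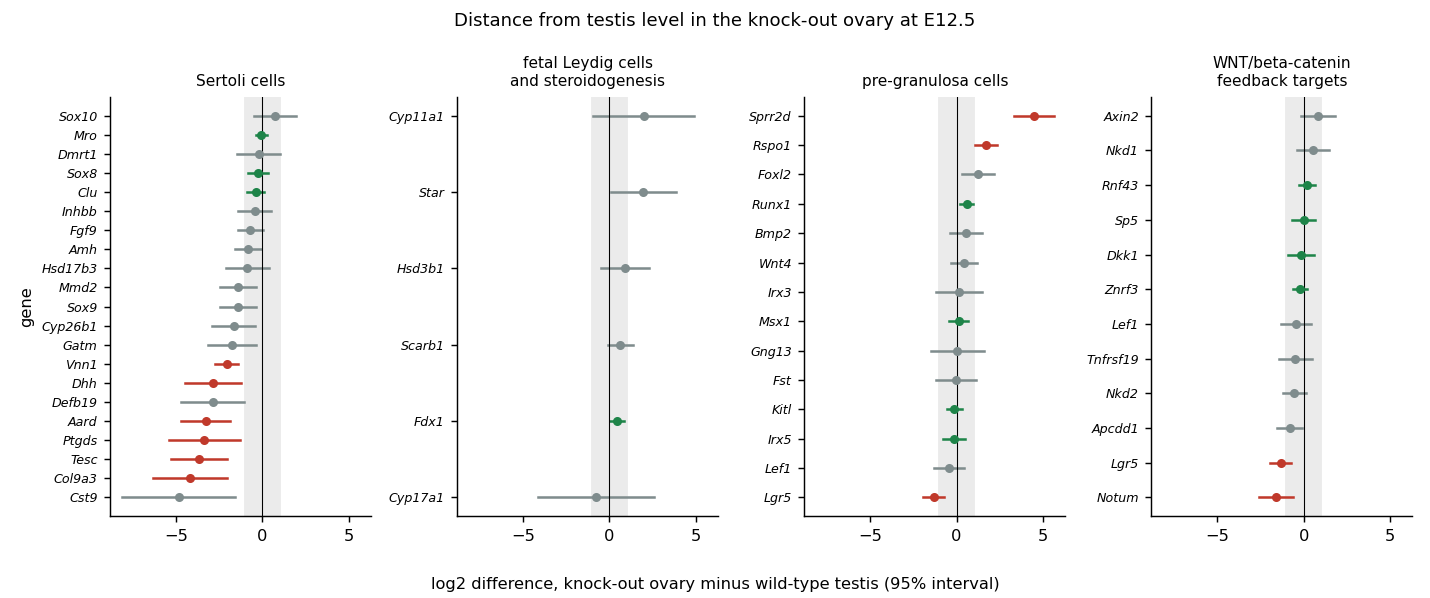
Difference of knock-out ovary from wild-type testis on the log2(intensity + 4) scale with its 95% interval for the measured genes of the Sertoli, Leydig, pre-granulosa and WNT lists, the grey band marking -1 to 1. Red points passed a limma adjusted p of 0.05, green points had an interval inside the band and grey points neither, and 20 of the 21 Sertoli genes lie to the left of 0.

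Some ovarian genes were above testis level in the mutant ovary. Rspo1, which encodes R-spondin 1, read 525 and 420.4 in the knock-out ovary, 264 and 406 in the wild-type ovary and 133 and 149 in the testis. All 4 ovary arrays were above the testis, and the mutant ovary was higher by 1.71 (interval 1.06 to 2.36, limma adjusted p = 0.0142). Sprr2d, a small proline-rich protein gene, read 419 and 71.9, with 144 and 211 in the wild-type ovary and 3.78 and 4.43 in the testis. The mutant arrays of Sprr2d differed widely from each other but both were far above the testis, which was below the array median, and the difference of 4.47 (interval 3.31 to 5.62, adjusted p = 0.00188) was 3.23 with knock-out replicate 1 left out and 5.71 with replicate 2 left out. Foxl2, the forkhead factor of granulosa cells, read 24.2 and 23.02, between 35.4 and 54.6 in the wild-type ovary and 6.67 and 8.53 in the testis with no overlap. Its difference from testis was 1.26 (interval 0.35 to 2.16, adjusted p = 0.0692) and did not pass the threshold. Bmp2, a secreted ligand, read 65.9 and 47.8 against 31.1 and 45.6 in the testis and 124 and 155 in the wild-type ovary, with a difference of 0.53 (interval -0.39 to 1.45).

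Over the 14 measured pre-granulosa genes, 2 were called higher than testis (Sprr2d and Rspo1, 14.3% beside 6.85% of all genes), 1 lower (Lgr5, 7.14% beside 2.06%) and 4 were within 2-fold (Msx1, Irx5, Runx1 and Kitl, 28.6% beside 57.2%). Their median difference from testis was 0.13, which became -0.04 with each array centred on its median, and 1.59 in the wild-type ovary, where 6 were called higher. Among ovary genes named from the E14.5 arrays, Gbp2b, a guanylate-binding protein gene, read 166 and 136 in the knock-out ovary, 129.9 and 115 in the wild-type ovary and 14.8 and 13.8 in the testis. The 4 ovary arrays lay together and the difference of the mutant from testis was 3.08 (interval 2.43 to 3.72, limma adjusted p = 0.000569). Csgalnact1, an enzyme of chondroitin sulfate synthesis, read 74.01 and 55.4 and was also close to 60.3 and 70.2 of the wild-type ovary, against 14.7 and 13.4 in the testis (difference 1.92, adjusted p = 0.0129). Lzts1, a leucine zipper protein gene, read 46.9 and 28.1, lower than 66.8 and 91.04 and above 7.72 and 8.63 (difference 1.73, adjusted p = 0.0108). Tmem178, a membrane protein gene, read 258 and 136, with 69.1 and 119 in the wild-type ovary and 38.3 and 41.03 in the testis (difference 2.13, adjusted p = 0.0124). Of these 6 genes called above testis, Sprr2d and Gbp2b kept the call with any of the 4 arrays left out and with the testis arrays averaged. The calls of Rspo1, Csgalnact1, Lzts1 and Tmem178 were each lost without knock-out replicate 1 (adjusted p up to 0.16), without testis replicate 1 or 2 (up to 0.147 and 0.171) and with the testis arrays averaged (up to 0.164).

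Of 22 listed Sertoli cell genes 21 were measured, and 6 (28.6%, beside 2.06% of all genes) were called lower than testis in the mutant ovary, 0 higher and 15 not called, of which Mro, Sox8 and Clu were within 2-fold (14.3%, beside 57.2%). Sox8 (4.59 and 5.10 in the mutant, 6.08 and 6.78 in the testis) and Mro (11.9 and 9.75, then 11.7 and 10.95) were close to background. For these genes 2-fold is therefore read near background. The median difference was -1.44, with 20 of 21 genes negative, and the wild-type ovary gave -1.67 with 1 gene called (Vnn1). Sox9, the factor that starts the Sertoli cell, read 32.6 and 48.3 in the knock-out ovary, 94.9 and 50.6 in the wild-type ovary and 112 and 118 in the testis. On this probe set both mutant arrays of Sox9 were below all 4 wild-type arrays, and the difference from testis of -1.44 (interval -2.49 to -0.40, limma adjusted p = 0.0687) missed the threshold. Another kept probe set of Sox9 read 70.3 and 56 in the mutant, 46.6 and 87.6 in the wild-type ovary and 79.8 and 87.9 in the testis, overlapping the wild-type ovary and closer to testis. Dhh, the desert hedgehog ligand, read 31.8 and 111, with 52.95 and 53.96 in the wild-type ovary and 509 and 419 in the testis. Its difference was -2.86 (interval -4.49 to -1.23, adjusted p = 0.039), and the testis arrays were far above the other 4.

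Aard, a gene named for its alanine- and arginine-rich domain, was among the brightest Sertoli genes, with 89.5 and 593 in the knock-out ovary, 293 and 367 in the wild-type ovary and 2308 and 2274 in the testis. The mutant arrays lay on both sides of the wild-type ovary pair, and the difference from testis was -3.28 (interval -4.71 to -1.85, limma adjusted p = 0.0195). Col9a3, a chain of type IX collagen, read 9.48 and 163, with 143 and 63.6 in the wild-type ovary and 892 and 840.3 in the testis. Its difference of -4.20 (adjusted p = 0.0298) was the lowest among called genes of the list, and Tesc, which encodes a calcium-binding protein, followed at -3.69 (adjusted p = 0.02). Ptgds, the prostaglandin D synthase, read 52.97 and 389 against 1560.0 and 1514 in the testis (difference -3.36, adjusted p = 0.0447). Vnn1, a pantetheinase, differed less between the mutant arrays, with 87.3 and 164 in the mutant ovary, 121 and 92.1 in the wild-type ovary and 529 and 505 in the testis (difference -2.07, interval -2.75 to -1.39, adjusted p = 0.00878).

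Each of the 6 called Sertoli genes was higher in knock-out replicate 2 than in replicate 1. As a percentage of their testis mean they ran from 1.09 to 16.9 (median 3.68) in knock-out replicate 1, with 0% male signal, and from 18.6 to 31.7 (median 24.6) in replicate 2, with 17.7%. In the wild-type ovary arrays, with 18% and 6.74% male signal, the medians were 12.1 and 14.1. Knock-out replicate 1 also had the 3'/5' ratio of 2.27, against 1.35 in replicate 2. With that ratio as a covariate 0 of the 6 were called (differences -2.94 to -1.59, limma adjusted p 0.144 to 0.39). With the share of male or female signal as a covariate all 6 were (-5.15 to -2.26). The part of male signal or of RNA quality in the Sertoli level was not tested. The calls were lost without knock-out replicate 1 (differences -2.38 to -1.63) and without testis replicate 1 (-4.15 to -2.04) or 2 (-4.24 to -2.1). They were also lost with the testis arrays averaged (-4.2 to -2.07). Both knock-out arrays lay below both testis arrays for each gene, so no sign could change in these fits. All 6 were kept without knock-out replicate 2, with differences from -6.01 to -2.51.

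Among Sertoli genes that did not pass, Cst9, a cystatin, read 6.92 and 242 in the knock-out ovary against 1582 and 1408 in the testis, with a difference of -4.85 (limma adjusted p = 0.0586). Defb19, a beta-defensin, read 84.4 and 197 against 1022 and 936 in the testis, with a difference of -2.88 (adjusted p = 0.0504). Cyp26b1, the enzyme that degrades retinoic acid, read 35.6 and 65.4, with 33.04 and 56.6 in the wild-type ovary and 138 and 192 in the testis. Inhbb, the beta-B subunit of activin and inhibin, was closer to testis than to the wild-type ovary, with 357 and 447 in the mutant, 157 and 182 in the wild-type ovary and 584 and 512 in the testis. The mutant arrays of Inhbb lay between the other groups with no overlap, at -0.45 from testis (interval -1.39 to 0.50). Amh, the anti-Müllerian hormone and a defining Sertoli product, was close to background even in the testis, at 11.1 and 10.8, and read 3.06 and 5.90 in the mutant ovary. Sox10 was the 1 gene of the list with a positive difference, at 0.75, and read 131 and 23.9 against 32.4 and 32.6 in the testis.

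**Figure D4:**
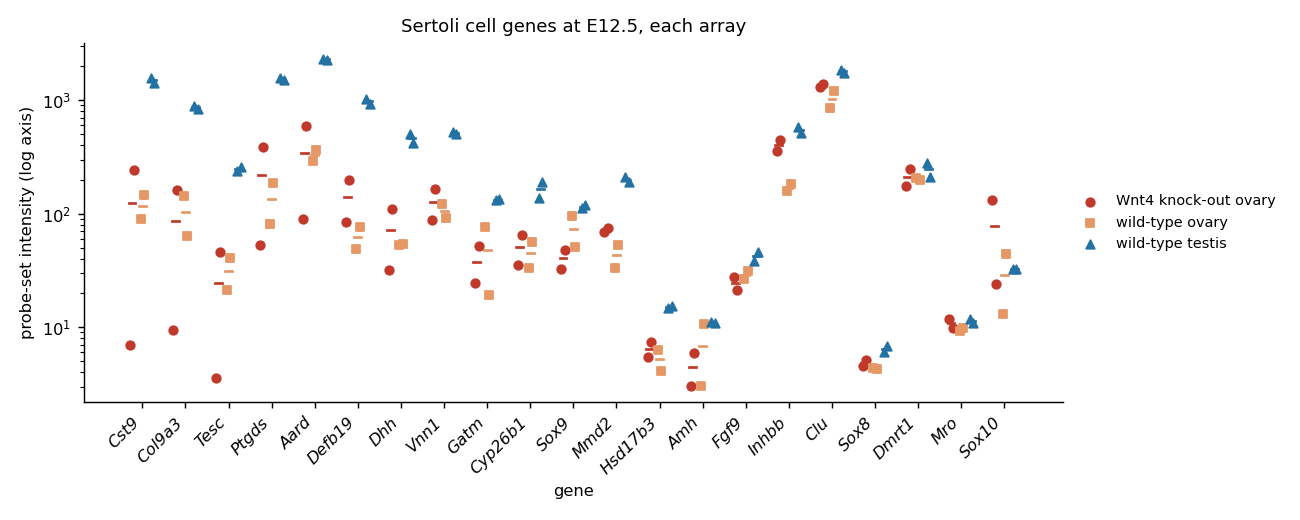
Intensity on a log axis of the 21 measured Sertoli cell genes in knock-out ovary, wild-type ovary and wild-type testis at E12.5, where each point is 1 array and each bar the mean of the 2 arrays. For Col9a3, Tesc, Cst9 and Ptgds knock-out replicate 1 lies far below replicate 2 and both lie below the testis. Clu and Inhbb lie close to the testis, as do Mro and Sox8, which are near background in every group.

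Beyond the Sertoli list, the lowest called genes included Cstdc1, Gstm6, Tmem184a, Akap10 and Gjb2. Cstdc1, a cystatin domain gene, read 6.48 and 11.9 in the knock-out ovary, 8.10 and 9.29 in the wild-type ovary and 165 and 170.3 in the testis. The 4 ovary arrays were at background, and the difference from testis was -3.73 (interval -4.62 to -2.85, limma adjusted p = 0.00116). Gjb2, which encodes connexin 26, read 9.05 and 12.02 and 8.82 and 12.9 in the mutant and wild-type ovary and 69.96 and 87.8 in the testis. Its difference was -2.51 (interval -3.05 to -1.97, adjusted p = 0.000569). Gstm6, a glutathione transferase, read 4.97 and 9.66 against 104 and 87.1 in the testis (difference -3.16, adjusted p = 0.0195), and Tmem184a, a membrane protein gene, 50.98 and 105 against 519 and 455 in the testis (difference -2.66, adjusted p = 0.0392). Akap10, an anchor of protein kinase A, had a difference of -2.63 on its brightest kept probe set, while another kept probe set read 44.7 and 41.8 in the mutant against 42.6 and 52.9 in the testis. Cstdc1 and Gjb2 kept their calls with any 1 of the 4 arrays left out, and Gstm6, Tmem184a and Akap10 lost theirs without knock-out replicate 1 and without either testis array.

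The highest called genes were Sprr2d, Tfcp2l1, Gbp2b, Plbd1, Ccdc182, Nav3, Smpdl3b, Zbtb7c, Tacr3 and Pappa2. Tfcp2l1, a grainyhead-like transcription factor, read 165 and 129.6 in the knock-out ovary, 48.7 and 110.2 in the wild-type ovary and 11.3 and 10.8 in the testis. All ovary arrays were above testis, with a mutant difference of 3.32 (interval 2.31 to 4.33, limma adjusted p = 0.00561). Plbd1, a phospholipase B domain gene, was high in the mutant alone among the 3 groups, with 201 and 114, then 20.9 and 17.6 in the wild-type ovary and 14.3 and 15.3 in the testis. Its difference from testis was 3.05 (interval 2.29 to 3.81, adjusted p = 0.00147) and from the wild-type ovary 2.75 (adjusted p = 0.00453). Ccdc182, a coiled-coil gene, read 88.2 and 35.6, with 6.54 and 6.49 in the wild-type ovary and 3.97 and 4.04 in the testis, both at background (difference from testis 2.92, adjusted p = 0.000569). Tacr3, the neurokinin B receptor, read 206 and 126, with 12.7 and 24.1 in the wild-type ovary and 25.3 and 28.7 in the testis (difference from testis 2.42, adjusted p = 0.0259). Nav3, a neuron navigator, read 80.1 and 94.5 against 11.5 and 11.7 in the testis (difference 2.54, adjusted p = 0.00522). Smpdl3b, Zbtb7c and Pappa2, a protease of insulin-like growth factor binding proteins, had differences of 2.52, 2.51 and 2.39. Of the 10 genes, 6 were called without knock-out replicate 1, 10 without knock-out replicate 2, 5 without testis replicate 1 and 4 without testis replicate 2 or with the testis averaged (Sprr2d, Gbp2b, Plbd1 and Ccdc182).

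Genes called higher in the knock-out than in the wild-type ovary are given with both of their differences, since the comparisons share the knock-out arrays. Lefty2 was the 1 gene of the 23 within 2-fold of testis. Besides Plbd1, Ccdc182 and Tacr3 they held Pcdh8, a protocadherin, which read 102 and 91.8 in the mutant, 14.7 and 14.8 in the wild-type ovary and 19.7 and 25.4 in the testis. The mutant arrays of Pcdh8 were above all 4 others, at 2.43 from the wild-type ovary (limma adjusted p = 0.0285) and 1.94 from testis (interval 1.08 to 2.79, adjusted p = 0.0195). Crh, corticotropin-releasing hormone, read 265 and 316, with 105 and 42.6 in the wild-type ovary and 119 and 112 in the testis (difference 2.04 from the wild-type ovary and 1.30 from testis, adjusted p = 0.026 and 0.0332). Cebpd, a leucine zipper factor, read 469.7 and 375, with 169 and 219.6 in the wild-type ovary and 193 and 189.5 in the testis (difference 1.11 and 1.12, adjusted p = 0.049 and 0.0168). For Crh and Cebpd too both mutant arrays were above the 4 wild-type arrays. Fxyd4, a regulator of the sodium pump, read 17 and 22.2, with 5.57 and 7.31 in the wild-type ovary and 4.39 and 4.87 in the testis (difference 1.17 and 1.44, adjusted p = 0.0213 and 0.00212). Against testis Fxyd4 kept its call without knock-out replicate 1 and without testis replicate 2 and lost it without testis replicate 1, and Pcdh8, Crh, Cebpd and Tacr3 lost theirs without knock-out replicate 1 and without either testis array.

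Except for Cyp17a1, the measured steroid-making genes read higher in both mutant arrays than in all 4 wild-type arrays, but none of the 6 measured members of the Leydig list passed the limma test against testis (0%, beside 8.91% of all genes in either direction), and 2 had an unadjusted p under 0.05. Star, which carries cholesterol into mitochondria, read 289 and 145 in the knock-out ovary, 49.3 and 42.6 in the wild-type ovary and 48.03 and 50.5 in the testis. Both mutant arrays of Star were above all 4 others, and the difference from testis was 1.97 (interval 0.08 to 3.86, limma adjusted p = 0.139). Cyp11a1, the side-chain cleavage enzyme that starts steroid synthesis, read 258 and 129.6, with 32.6 and 14.4 in the wild-type ovary and 42.4 and 44.9 in the testis, at a difference of 1.97 (interval -0.98 to 4.92, adjusted p = 0.331). Hsd3b1, which makes progesterone, read 532 and 301, with 59.6 and 83.5 in the wild-type ovary and 185 and 246 in the testis (difference 0.90, adjusted p = 0.348), and Scarb1, the receptor for high-density lipoprotein, 714 and 435, with 293 and 375 in the wild-type ovary and 383 and 335 in the testis. Cyp17a1, the enzyme that opens the androgen branch, ran the other way, with 6.68 and 8.52 in the mutant ovary, 4.75 and 5.95 in the wild-type ovary and 15.9 and 15.3 in the testis. All ovary arrays of Cyp17a1 were below their array medians and below the testis, which was itself dim (difference -0.76, adjusted p = 0.765). Fdx1, the electron donor of these enzymes, was within 2-fold of testis, and Hsd3b6, Insl3, Lhcgr and Fdxr were not analysed here. The median of the 6 was 0.76, beside 0.15 for all genes. Of the hedgehog target genes, 0 of 3 were called and 0 had an unadjusted p under 0.05, Ptch1, the receptor, was within 2-fold and Hhip, a hedgehog inhibitor, read 38.5 and 43.2 against 62.9 and 84.3 in the testis (difference -0.78).

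Of 4 measured adrenal cortex genes 1 (25%, beside 6.85% of all genes) was called higher than testis. It was Cyp11b1, the last enzyme of corticosterone synthesis, which read 113 and 36.2 in the knock-out ovary, 13.5 and 15.95 in the wild-type ovary and 12 and 15 in the testis. Knock-out replicate 1 was the highest, and the difference from testis was 1.98 (interval 1.05 to 2.90, limma adjusted p = 0.0235). Mc2r, the corticotropin receptor, read 183 and 82.97, with 61.4 and 38.6 in the wild-type ovary and 53.4 and 48.7 in the testis (difference 1.21, adjusted p = 0.0557). The summed intensity of the 4 adrenal genes was 355 and 157 in the mutant, 100.3 and 72.2 in the wild-type ovary and 94.5 and 91.8 in the testis, and Cyp11b2 was removed as too dim. Of 9 measured chromaffin and sympathetic genes, Th and Chga (22.2%, beside 6.85%) were called higher and 0 lower, and the list ran down to -1.01 (Stmn2). Th, the rate-limiting enzyme of catecholamine synthesis, read 127 and 62.1, with 15.8 and 13.5 in the wild-type ovary and 30.1 and 30.03 in the testis (difference 1.45, adjusted p = 0.0144), and Chga, a protein of secretory granules, 329 and 85.3, with 45.4 and 36.4 in the wild-type ovary and 54.6 and 50.7 in the testis (difference 1.61, adjusted p = 0.0461). The sums of the 9 were 6292 and 2611 in the mutant, 1981 and 1935 in the wild-type ovary and 2411 and 2382 in the testis. Knock-out replicate 1, the array with the 3'/5' ratio of 2.27, was thus the highest for Star, Cyp11a1, Cyp11b1, Mc2r, Th and Chga, and the part of adrenal tissue or of RNA quality in these levels was not tested. In a whole gonad more cells of a type and more RNA per cell cannot be told apart.

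Of 8 striated muscle genes 3 (37.5%, beside 6.85% of all genes) were called higher than testis, Myh3, Tnnt1, a troponin, and Ttn, titin, and 0 lower. Myh3, an embryonic myosin, read 78.2 and 207 in the knock-out ovary, 15.4 and 15.9 in the wild-type ovary and 28.98 and 24.3 in the testis. Knock-out replicate 2 was the highest, and the difference from testis of 2.11 (interval 1.04 to 3.17, limma adjusted p = 0.0296) was 2.79 without replicate 1 and 1.43 without replicate 2. Tnnt1 was instead slightly higher in replicate 1, with 150.4 and 139. The sums of the 8 were 713 and 1453 in the mutant, 214 and 304 in the wild-type ovary and 525 and 547 in the testis, so the mutant array with the higher muscle sum was not the one with the higher adrenal sum. The part of muscle in other results was not tested.

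**Figure D5:**
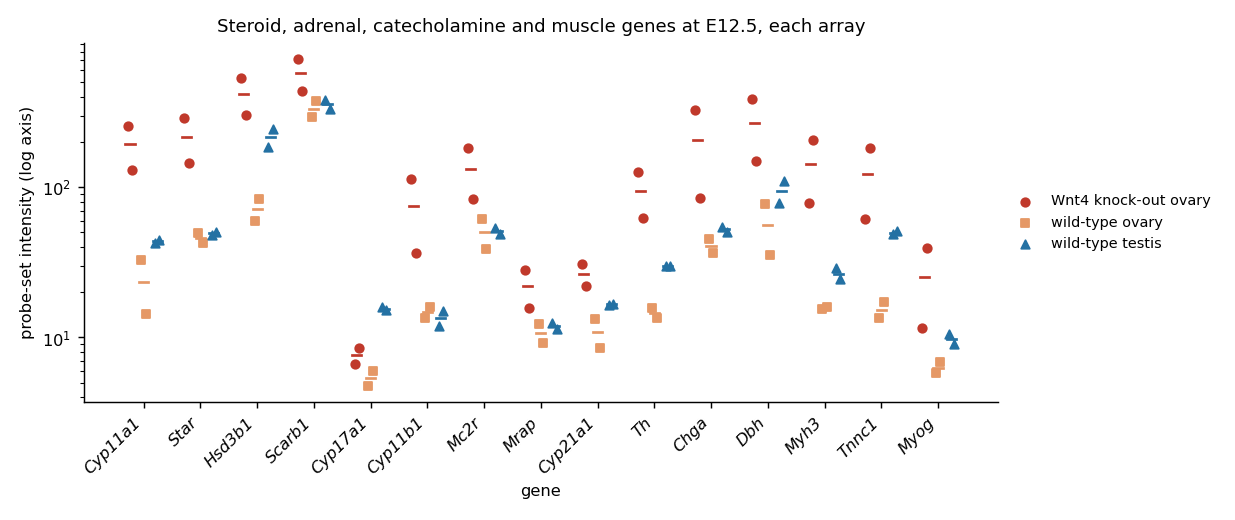
Intensity on a log axis of steroid-making, adrenal, chromaffin and muscle genes in knock-out ovary, wild-type ovary and wild-type testis at E12.5, where each point is 1 array and each bar the mean of the 2 arrays. The steroid-making genes Star and Cyp11a1 and the adrenal gene Cyp11b1 are highest in knock-out replicate 1, Myh3 is highest in knock-out replicate 2, and Cyp17a1 is lowest in the ovaries.

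Some genes of the gonadal primordium and the mesonephros were above testis in mutant and wild-type ovary alike. Among 9 measured genes of the bipotential gonad, Lhx9, a LIM homeobox factor, read 2019 and 1527 in the knock-out ovary, 1393 and 1781 in the wild-type ovary and 816 and 755 in the testis. Its difference was 1.16 (interval 0.71 to 1.60, limma adjusted p = 0.0142), Zfpm2, a cofactor of GATA4, was the other call of the list (22.2%, beside 6.85% of all genes) at 0.76, and Wt1 was within 2-fold. Nr5a1, the steroidogenic factor, varied widely, with 316 and 117, 49.05 and 256 and 45.3 and 39.02 (difference 2.10, adjusted p = 0.0552). In the mesonephros list Cdh16, a cadherin of renal tubules, was the 1 call of 6 (16.7%), with 714 and 574 in the mutant, 445 and 707 in the wild-type ovary and 172 and 185 in the testis (difference 1.82, adjusted p = 0.0142). Calb1, a calcium-binding protein of the ducts, read 172 and 201 against 71.7 and 68.99 in the testis (difference 1.35, adjusted p = 0.0577). For Lhx9, Cdh16 and Calb1 all 4 ovary arrays were above both testis arrays.

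In the vascular lists, Kdr, the main receptor for vascular endothelial growth factor, was the 1 call of 11 endothelial genes (9.09%, near the 6.85% of all genes called higher) and read 437 and 307 in the knock-out ovary, 225 and 375 in the wild-type ovary and 120.2 and 130.1 in the testis (difference 1.52, interval 0.94 to 2.10, limma adjusted p = 0.0142). Of 6 arterial genes Hey1, a Notch target, and Gja4, which encodes connexin 37, were called higher (33.3%) at 1.16 and 1.08, and the other 4 were within 2-fold of testis (66.7%, beside 57.2%). Gja5 was removed as too dim. C1qa, a complement chain made by macrophages, was the 1 call of 11 macrophage genes (9.09%, again near 6.85%) at 1.22, and the summed intensity of these genes was 2330 and 1364 in the mutant, 1129 and 1608 in the wild-type ovary and 1101 and 1037 in the testis. Of 8 interstitial genes 1 was called (12.5%), Dlk1, an inhibitor of Notch, at 0.70 (adjusted p = 0.0495), and 6 were within 2-fold (75%). Of 6 immediate early and heat shock genes the chaperones Hspa1b and Hspa1a were called higher (33.3%), at 1.58 and 1.24. The 17 calls in these lists and the adrenal, chromaffin, muscle, mesonephros, bipotential and male germ cell lists were all lost without knock-out replicate 1. They were also lost without either testis array and with the testis averaged, while most were kept without knock-out replicate 2. With each array centred on its median 10 of the 17 stayed called, and with the 3'/5' ratio as a covariate 0 did.

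Germ cell genes did not pass the limma test outside the male list. Of 10 measured germ cell genes 0 were called (0%, beside 8.91% of all genes in either direction). Of the same 10 genes, 2 (20%, beside 57.2%) were within 2-fold of testis, with a median difference of 0.28 and 1 unadjusted p under 0.05. Of 7 meiosis genes 0 were called and 0 had an unadjusted p under 0.05. Stra8, which starts meiosis under retinoic acid, was at background in every group, with 4.82 and 5.58 in the knock-out ovary, 6.95 and 12.7 in the wild-type ovary and 4.67 and 4.55 in the testis. Of 6 erythroid and 6 proliferation genes, 5 each were within 2-fold (83.3%) and 0 were called, with 0 and 2 unadjusted p under 0.05. In lists as short as these, 0 calls lies close to the 8.91% of all genes.

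Gene sets taken from E14.5 arrays, none of which is in the comparison but all of which share its estimate of spread, were counted in the same way. Male signal in these E14.5 arrays was 0.423% and 19.9% in the wild-type ovary and 0.277% and 0.432% in the knock-out ovary. Female signal, read from Xist, was 0.0177% and 22.7% in the wild-type testis of E14.5. The part of such signal in the choice of the sets was not tested. Of 263 genes (2.22% of those tested) higher in the wild-type testis than ovary at E14.5, 17 (6.46%, beside 6.85% of all genes) were higher and 15 (5.7%, beside 2.06%) lower in the mutant ovary than in the testis of E12.5, and 122 (46.4%, beside 57.2%) were within 2-fold. The lower ones included Col9a3, Cstdc1, Tesc and Dhh. The brightest within 2-fold were Cycs, cytochrome c, which read 3112 and 3424 in the knock-out ovary against 4526 and 4244 in the testis, Stox2, Hmgcs1, an enzyme of cholesterol synthesis, and Ptch1, with 1991 and 2581 against 2704 and 2595 in the testis. The median difference was 0.09, beside 0.15 for all genes, and the wild-type ovary gave 0 higher, 10 lower, 127 within 2-fold and a median of -0.13. Of 175 genes (1.48%) higher in the ovary at E14.5, 13 (7.43%) were higher, 4 (2.29%) lower and 93 (53.1%) within 2-fold in the mutant, each close to the share of all genes. The largest of the 13 were Gbp2b, Tmem178, Csgalnact1 and Lzts1, and the brightest within 2-fold were Kctd14, Pdgfc, a platelet-derived growth factor, Arhgap29 and Kitl. The wild-type ovary had 19 of these higher and 0 lower, with medians of 0.21 in the wild-type and 0.14 in the mutant ovary.

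Genes that changed at E14.5 in the mutant ovary were placed in the same way. Of 38 genes (0.321%) lower in the mutant than in the wild-type ovary at E14.5, 2 (5.26%, beside 6.85% of all genes) were above testis in the mutant of E12.5. Below testis were 4 (10.5%, beside 2.06%), and 21 (55.3%, close to the 57.2% of all genes) were within 2-fold. The median difference of the 38 from testis was 0.01 in the mutant and 0.64 in the wild-type ovary, where 6 were higher and 0 lower. The calls largest in size were Osr2, Lzts1, Notum and Lgr5, and the brightest within 2-fold were Vcan, a matrix proteoglycan, Stxbp6, Cth, an enzyme that makes cysteine, and Msx1. Of 22 genes (0.186%) higher in the mutant than in the wild-type ovary at E14.5, 7 (31.8%, beside 6.85% of all genes) were above testis, 0 below and 7 within 2-fold, with a median of 0.55 in the mutant and -0.07 in the wild-type ovary. Adam8, a membrane protease, read 145 and 78.2 in the knock-out ovary, 95.8 and 103 in the wild-type ovary and 17.5 and 17.2 in the testis, so that both ovaries were above testis (difference 2.38, interval 1.74 to 3.01, limma adjusted p = 0.00212). Htr1b, a serotonin receptor, read 128 and 81.4, with 32.4 and 24.6 in the wild-type ovary and 26.9 and 30.7 in the testis (difference 1.70, adjusted p = 0.0326), and Mettl24 and Fmo2, a flavin monooxygenase, followed at 1.58 and 1.55. Akr1cl, an aldo-keto reductase, was the brightest within 2-fold of testis, with 1923 and 2009 in the mutant, 1711 and 1607 in the testis and 1013 and 916 in the wild-type ovary. The other 3 named within 2-fold were Lefty2, Lrfn5 and Ramp1, a partner of the calcitonin receptor family. Without knock-out replicate 1 the calls in these sets fell from 32 to 2 for testis genes, from 17 to 1 for ovary genes and from 13 to 2 for genes changed in the knock-out. Without testis replicate 1 they were 2, 1 and 1, and without testis replicate 2 they were 2, 1 and 0.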

How the data were processed

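RNA of whole embryonic gonads, frozen after dissection until genotyped, was measured on Affymetrix Mouse430_2 arrays. The authors deposited an intensity per probe set on a linear scale, per the labels' table of values. MAS5 is the 1 tool named in the submitters' processing notes, with version and scaling target not given in the sources used here. Of 45101 probe sets, 64 controls were left out, 34958 carried 1 gene symbol in the platform annotation, 932 several (not named) and 9160 none. Genes were placed on chromosomes by Entrez ID in a RefSeq table of GRCm38.p6. Intensities became log2(intensity + 4), the constant being the median of the arrays' 20th percentiles, rounded. A probe set was kept if 2 or more arrays had it above their median (25596 were), and the brightest stood for its gene. limma 3.58.1 in R 4.3.3 (lmFit, eBayes with an intensity trend, two-sided) fitted 8 group means to all 16 arrays, with 8 residual, 5.29 prior and 13.3 total degrees of freedom, and p was adjusted by Benjamini-Hochberg over 12332 genes. The number of arrays limits the precision. The script was tested on simulated data.

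Named genes were the 10 highest and 10 lowest called genes whose arrays did not overlap, Wnt4, Fst, Msx1 and Lefty2, the 4 core lists (Sertoli, Leydig, pre-granulosa, WNT), up to 4 genes of each other list by p, genes called between knock-out and wild-type ovary and within 2-fold of testis, and 8 of each E14.5 set (adjusted p under 0.05 there). Genes described outside this rule were chosen after their values were seen. The comparison, genes and lists were chosen with earlier results of these data known. Of listed genes, Nedd9, Hsd3b6, Insl3, Lhcgr, Fdxr, Tcf7, Akr1b7, Nanos3, Nanos2, Pax2, Ccnb1 and some others were not analysed here, and Cyp11b2, Gja5 and Hba-a1 were too dim. Alternatives changed the added constant, filter, scaling, variance model, probe sets, arrays, covariates and thresholds. Same-numbered arrays of knock-out ovary and testis did not deviate together (correlation of deviations -0.0739). Those of knock-out and wild-type ovary deviated in opposite directions (-0.656). The arrays share only a number, and no pairing was used.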

Additional observations from a re-analysis of the deposited data

How the results depend on the processing

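Counts follow the order total called (1056), E14.5 testis-higher set (32), E14.5 ovary-higher set (17), E14.5 knock-out-changed set (13) and core lists (10), then wild-type ovary against testis (64) and knock-out against wild-type ovary (35), with only values that left 1.5 times the reported one. They were 2443, 53, 28 and, for core lists, 18 and, for knock-out against wild-type ovary, 4 with array weights. With the mean of probe sets they were 448, 20, 9 and, for wild-type ovary against testis, 41. With only the E12.5 arrays they were 28, 9, 3, 2, 1, 32 and 22. With only the 4 arrays compared, limma called 0 in each of the first 5, and that fit had 4271 genes at an unadjusted p under 0.05. With the testis arrays averaged they were 8, 2, 1, 0, 1, 11 and 9. The share of male or female signal as a covariate gave 2312 in total and 16 in core lists. The 3'/5' ratio as a covariate gave 12, 2, 1, 1, 1 and, for wild-type ovary against testis, 35, and both covariates together, chosen after seeing the data like the centring, gave 11, 3, 2, 0, 2 and 31. At an adjusted p under 0.01 counts were 23, 4, 1, 2, 2, 23 and 8, at a minimum change of 2-fold the total was 599, and E14.5 sets at 0.01 held 12, 10 and 4 calls. Knock-out against wild-type ovary gave 13 calls with the stricter filter and 21 without the intensity trend. Genes within 2-fold (6774) were 12329 with no filter, where dim probe sets enter, and 2117 at a margin of 1.5-fold. Leaving out 1 array gave 9 to 2653, 2 to 44, 1 to 22, 0 to 12 and 1 to 13 calls, 4757 to 6598 genes within 2-fold, 9 to 1506 calls for wild-type ovary against testis and 16 to 194 for knock-out against wild-type ovary. Beyond fewer arrays or genes in a fit the cause was not tested. Depth is not given by arrays, and genes near an intensity of 10 are limited by background.

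The replicate number as a block gave 292, 21, 10 and 5 calls in the total and the 3 sets, 37 for wild-type ovary against testis and 19 for knock-out against wild-type ovary, and left core lists at 7 and genes within 2-fold at 6529. The arrays share only a number, with correlations of deviations of -0.0739, -0.656 (knock-out and wild-type ovary) and 0.0833 (testis and wild-type ovary). Crossing the numbers of the wild-type ovary, also chosen after seeing the data, gave 35 calls for knock-out against wild-type ovary. For knock-out ovary against testis it gave 1161 genes higher and 414 lower.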

Other observations

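Adhfe1 and Shbg, chosen after their values were seen, were called in all of 11 settings, which left out each of the 4 arrays in turn, averaged the testis, centred the arrays, took the mean of probe sets, fitted the E12.5 arrays only, or added the replicate block, the 3'/5' ratio or the male or female signal. The fit of only the 4 arrays compared, in which 0 genes were called, was not among these settings. Adhfe1, an iron-dependent alcohol dehydrogenase, read 9.60 and 13.5 in the knock-out ovary, 10.8 and 9.85 in the wild-type ovary and 81.3 and 78.8 in the testis. The 4 ovary arrays were near background, and the difference of the mutant from testis was -2.45 (limma adjusted p = 0.000245). Shbg, which binds sex steroids, read 5.50 and 6.75, with 7.37 and 7.31 in the wild-type ovary and 29.2 and 30.2 in the testis (difference -1.74, interval -2.16 to -1.31, adjusted p = 0.00139). The other genes called in all 11 were Ccdc182, Cstdc1, Gbp2b, Gjb2 and Plbd1, 7 of 1056 in all. Aldh1a1, an enzyme that makes retinoic acid, read 599 and 625 in the knock-out ovary, 573 and 777 in the wild-type ovary and 1932 and 1780.2 in the testis (difference -1.59, adjusted p = 0.0142), and was called in 6 of the 11 settings, not without knock-out replicate 1 or either testis array.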
